A study of Homo sapiens with 6 samples.

Results

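The vacuolar proton pump (V-ATPase) was followed at the RNA level through 10 of its genes in cells in which SPOP had been depleted. The genes were ATP6V0B, ATP6V0C, ATP6V0D1 and ATP6V0E1 of the membrane sector, ATP6V1A, ATP6V1B2, ATP6V1E1 and ATP6V1H of the cytosolic sector, and the accessory genes ATP6AP1 and ATP6AP2. They were taken by gene symbol, and each had 1 row in every deposited table. The 10 genes were among the 24551 genes listed, and all 10 were among the 11865 that averaged 1 FPKM or more (fragments counted for each kilobase of a transcript, adjusted for library size) and were analysed. ATP6V0B was chosen by its lower FPKM after SPOP depletion, and the other subunits because they belong to the same enzyme, so the knockdown values of these genes are given as a description with no test.

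RNA sequencing had been done on 6 libraries in 4 groups. DU145, an established human prostate carcinoma line, gave 1 library from control cells (labelled NC) and 1 library from each of 2 siRNAs against SPOP. The line 769-P, an established human renal cell adenocarcinoma line, gave the same 3 libraries. SPOP is the substrate-binding adaptor of a cullin 3 ubiquitin ligase. The labels name no other alteration of it in any group, and the time between transfection and RNA extraction was not given in the sources used here. The 2 siRNAs of a line were used as replicates of the knockdown (n = 2) and the control stood alone (n = 1), so errors below are the SD over the 2 siRNAs. The siRNA numbers do not name separate cultures, and the spread between these libraries may be partly technical.

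The V-ATPase is a rotary enzyme. Its cytosolic V1 sector binds and hydrolyses ATP, with the catalytic site on ATP6V1A and ATP6V1B2, and turns a ring of proteolipid subunits in the membrane V0 sector, through which protons pass into the lumen. The ring is built from ATP6V0C, the main proteolipid, and ATP6V0B, a related proteolipid that sits in the same ring. The pump acidifies lysosomes, endosomes and secretory vesicles in nearly all cells, and in the kidney special isoforms carry protons across the plasma membrane of acid-secreting tubule cells. Many lysosomal genes share a promoter element that contains CACGTG, which is read by the transcription factors TFEB and TFE3.

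Among all genes, the knockdown, the depth and the identity of the lines were checked once. SPOP FPKM was 16.1 in the DU145 control, 2.77 with siRNA 1 and 2.96 with siRNA 2, and it was 11.6, 1.53 and 1.39 in the same order in 769-P. SPOP was thus lower with each siRNA in both lines, although limma gave an adjusted p of 0.134 in DU145 and 0.0948 in 769-P. The values held no read counts, so the number of fragments behind each value is unknown, and the FPKM of a library summed to between 397831 and 448185. A rough estimate of depth from genes under 1 FPKM was taken relative to the 769-P control. It was 1.17, 0.69 and 0.68 in DU145 (control, siRNA 1, siRNA 2), and 1.06 and 1.40 with siRNA 1 and siRNA 2 in 769-P. By this estimate the DU145 control was deeper than both of its siRNA libraries. PAX8, a kidney lineage factor, was at 1.10 to 1.47 FPKM in the DU145 libraries and at 106 to 125 FPKM in the 769-P libraries, and CDH1, an epithelial cadherin, was at 8.87 to 17.7 FPKM in DU145 and at no more than 0.0977 FPKM in 769-P. Of the other markers, KRT8, KRT18 and EPCAM were higher in every DU145 library, and PAX2 and VIM in every 769-P library. NNMT, listed as a renal carcinoma marker, ran the other way, at 47.3 to 70.5 FPKM in DU145 and 6.31 to 9.76 FPKM in 769-P. CA9, listed likewise, was at 0 in all 769-P libraries, and the epithelial keratin KRT5 was at most 0.254 FPKM in either line. Of 384 olfactory receptor genes, which these lines are not known to use, 301 were above 0 in the DU145 control and 250 in 769-P with siRNA 2, against 4 to 6 in the other libraries. Their mean in those libraries was 0.345 and 0.227 FPKM, far below the level of any of the 10 pump genes. The DU145 changes all rest on that control, and with each library's olfactory mean subtracted ATP6V0B was again the 1 pump gene called in each line.

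ATP6V0B was the pump gene that stood apart. The DU145 control had 106 FPKM, and the siRNA libraries of that line had 36.3 (siRNA 1) and 54.5 (siRNA 2). The 769-P control had 150.2 FPKM, and siRNA 1 and siRNA 2 left 75.9 and 86.6. Within each line both siRNA libraries lay below the control. The mean with the siRNAs was 45.4 ± 12.9 FPKM in DU145 and 81.2 ± 7.57 FPKM in 769-P (SD, n = 2 in each line). The level left was 34.2% and 51.4% of the control in DU145, and 50.5% and 57.6% of the control in 769-P. On the log2(FPKM + 1) scale the change over the control was -1.52 with siRNA 1 and -0.95 with siRNA 2 in DU145 (mean -1.23 ± 0.40), and it was -0.98 and -0.79 in 769-P (mean -0.88 ± 0.13). In bulk RNA, fewer cells holding a transcript and less transcript in each cell cannot be told apart.

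A gene was called where both siRNAs of a line moved it past 1.5-fold the same way. By this measure ATP6V0B was lower in each line, and none of the other 9 pump genes was called in either direction in either line. Over all 11865 genes the same call was met downward by 1.19% in DU145 and by 3.73% in 769-P, and upward by 4.72% in DU145 and by 3.60% in 769-P, which made 5.91% and 7.32% in either direction. Downward calls in both lines were met by 32 genes, or 0.270%. Since ATP6V0B was picked for this value, nothing is read from that comparison. At 2-fold with both siRNAs, met downward by 0.329% of genes in DU145 and by 0.565% in 769-P, ATP6V0B was not called in either line. A lower mean change than that of ATP6V0B was found for 41 genes (0.346%) in DU145 and for 203 genes (1.71%) in 769-P, and no other pump gene was among them.

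**Figure D1:**
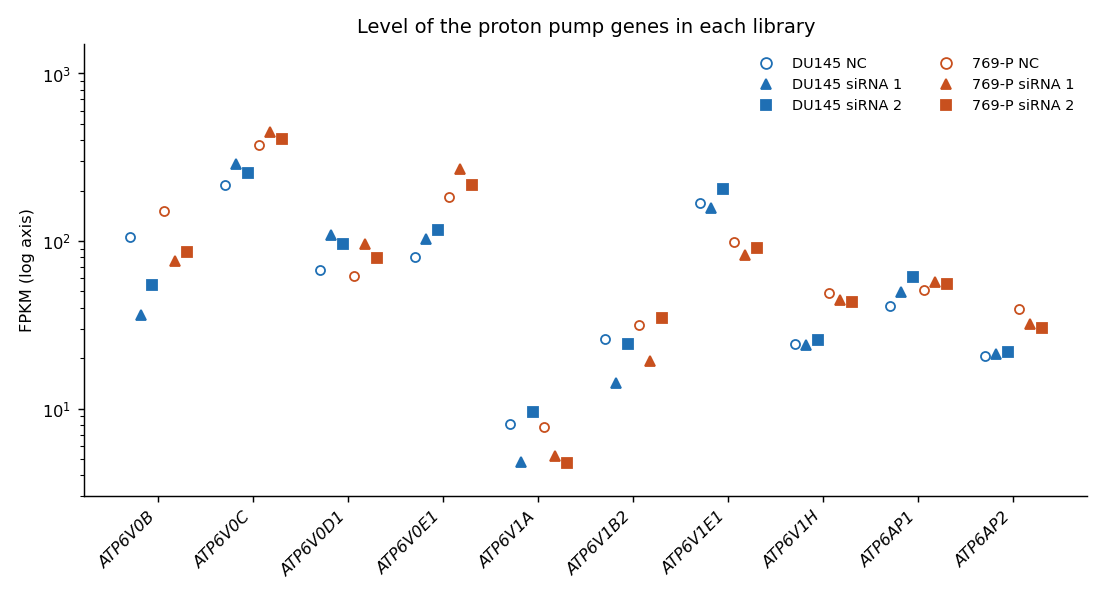
FPKM (log axis) of the 10 proton pump genes in each of the 6 libraries, 1 point a library, for DU145 and 769-P. ATP6V0B is at 106 FPKM in the DU145 control against 36.3 and 54.5 with the siRNAs, while ATP6V0C is the highest and ATP6V1A the lowest of the 10 in every library.

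The ATP6V0B gene lies on chromosome 1 at 44440159 to 44443967 on the plus strand (GRCh37, ENSG00000117410) and spans 3809 bp. An antisense lncRNA, ENSG00000285649, overlaps its 5′ end by 335 bp. Whether fragments were counted by strand was not given in the sources used here, so reads from the overlap cannot be assigned to either gene. The promoter of ATP6V0B is shown because this gene was the lower one, that of ATP6V0D1 because its gene, of the same sector, was higher with every siRNA, and that of ATP6V0C because it encodes the companion proteolipid. The sequences are the 250 bases before the annotated start in RefSeq (build GRCh38.p14), read 5′ to 3′ on the strand of the gene, with CACGTG in capitals.
ATP6V0B, chr1:43974710-43974959, plus strand: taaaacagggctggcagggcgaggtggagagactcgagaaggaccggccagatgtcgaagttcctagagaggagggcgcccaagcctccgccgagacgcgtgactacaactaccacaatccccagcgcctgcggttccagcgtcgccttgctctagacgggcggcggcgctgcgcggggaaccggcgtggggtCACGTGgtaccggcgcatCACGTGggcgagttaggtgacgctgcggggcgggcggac
ATP6V0D1, chr16:67481158-67481407, minus strand: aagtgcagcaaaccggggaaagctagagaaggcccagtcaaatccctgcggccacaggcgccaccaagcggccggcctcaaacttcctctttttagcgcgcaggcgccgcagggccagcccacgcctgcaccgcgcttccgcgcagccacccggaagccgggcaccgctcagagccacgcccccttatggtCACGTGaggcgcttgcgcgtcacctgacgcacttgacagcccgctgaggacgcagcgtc
ATP6V0C, chr16:2513702-2513951, plus strand: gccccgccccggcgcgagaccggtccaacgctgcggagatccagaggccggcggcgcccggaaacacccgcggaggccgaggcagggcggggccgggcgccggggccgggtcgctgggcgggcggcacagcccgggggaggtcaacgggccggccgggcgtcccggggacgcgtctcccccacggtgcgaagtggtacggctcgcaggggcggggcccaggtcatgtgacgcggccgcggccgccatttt
The ATP6V0B promoter held 2 copies of CACGTG, 57 and 39 bases before the start and 18 bases apart, and the ATP6V0D1 promoter held 1 copy, 59 bases before the start. The ATP6V0C stretch held none. CACGTG reads the same on both strands.

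A RefSeq promoter window of 250 bases before and 50 bases after the start was at hand for 6 of the 10 genes, and CACGTG was found in the windows of 2 of these, ATP6V0B and ATP6V0D1. No window was used for ATP6V0E1, ATP6V1A, ATP6V1B2 and ATP6V1H. Of all 35116 such windows, 7.26% held CACGTG. Among the other pump subunits, 12 had a window and 2 held the motif, ATP6V0E2 and ATP6V1G1. The ATP6V1G1 site, shown because this subunit was called upward in DU145, lay 58 bases before the start.
ATP6V1G1, plus strand: acgctgtgcggtCACGTGacaacgggggcg
The longer form TCACGTG, which overlaps CACGTG and was searched on both strands, was found in 3.71% of all windows. Each of the 4 pump genes with CACGTG also held TCACGTG. A 10-base form, in which CACGTG is preceded by GT and followed by AC, was found in 0.353% of all windows. ATP6V1G1 held 1 copy of this form, and ATP6V0B, ATP6V0D1 and ATP6V0E2 held 0. Of the 4 pump genes with CACGTG, ATP6V0B and ATP6V0E2 were below the control with both siRNAs in DU145, and ATP6V0D1 and ATP6V1G1 were above it. In 769-P, ATP6V0B was below the control and ATP6V0D1 above it with both siRNAs. There the log2 changes (siRNA 1, siRNA 2) were 0.15 and -0.32 for ATP6V0E2, and 0.04 and 0.01 for ATP6V1G1.

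Set against its partners, ATP6V0B held a lower place after knockdown. Its FPKM in the DU145 control was 2.61 times the median of the other 9 genes, and the ratio was 0.727 and 0.897 in the siRNA libraries of that line. The 769-P control had a ratio of 2.94, and siRNA 1 and siRNA 2 gave 1.32 and 1.56. Among the 10 genes it ranked 3 from the top in both controls, and 6 with either siRNA in DU145. In 769-P it ranked 5 with siRNA 1 and 4 with siRNA 2. The median of the other 9 genes was 40.7, 49.97 and 60.8 FPKM in the DU145 libraries (control, siRNA 1, siRNA 2) and 51.0, 57.3 and 55.5 FPKM in the 769-P libraries. In every library this median was the value of ATP6AP1, so its rise in all 4 siRNA libraries is that of 1 gene. Of the 9 genes, 4 and 1 were below the control in DU145 (siRNA 1, siRNA 2), and 5 and 4 in 769-P.

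Like shifts were seen against single subunits of the membrane sector. ATP6V0B stood at 49.2% of the ATP6V0C level in the DU145 control and at 12.7% and 21.4% in the siRNA libraries of that line. The share in 769-P was 40.1% in the control, and siRNA 1 and siRNA 2 gave 16.9% and 21.4%. Against ATP6V0D1, the stalk-side subunit of the membrane sector, the ratio was 1.59 in the DU145 control and 0.334 and 0.571 with the siRNAs, and it was 2.43 in the 769-P control and 0.793 and 1.09 with the siRNAs. In each line every siRNA library had a lower ratio than the control on all 3 measures. All 3 share ATP6V0B, the gene chosen by its lower FPKM after SPOP depletion, so they are not separate support. The lower ratios are given as a description.

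**Figure D2:**
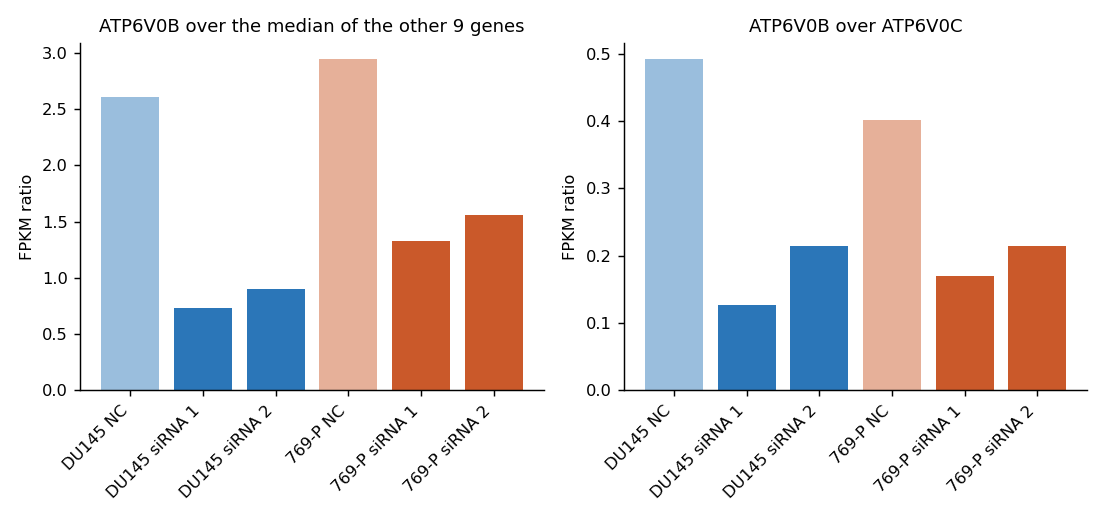
Ratio of ATP6V0B FPKM to the median FPKM of the other 9 pump genes in each of the 6 libraries. That median was the value of ATP6AP1 in every library. The ratio is 2.61 and 2.94 in the controls of DU145 and 769-P and lies between 0.727 and 1.56 in the 4 siRNA libraries.

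ATP6V0C, ATP6V0D1 and ATP6V0E1 were each higher than the control with every siRNA in both lines, but none reached 1.5-fold with both siRNAs. ATP6V0C had 216, 287 and 255 FPKM in DU145 (control, siRNA 1, siRNA 2) and 375, 449 and 404 FPKM in 769-P. Its change was 0.41 and 0.24 on the log2 scale in DU145 and 0.26 and 0.11 in 769-P. ATP6V0C lies on chromosome 16 at 2563953 to 2570219 and shares its strand and position with 2 other genes annotated as protein coding, so its count may include their fragments. ATP6V0D1 had 66.7, 109 and 95.4 FPKM in DU145 and 61.8, 95.6 and 79.4 FPKM in 769-P. Its change was 0.69 and 0.51 in DU145 and 0.62 and 0.36 in 769-P, the largest upward changes by mean among the 10 genes in each line. ATP6V0D1 (chromosome 16 at 67471917 to 67515084, minus strand) overlaps no other annotated gene. ATP6V0E1, a small hydrophobic subunit of the membrane sector, had 80.9, 104 and 117 FPKM in DU145 and 183, 270.4 and 217 FPKM in 769-P. Its change was 0.35 and 0.53 in DU145 and 0.56 and 0.25 in 769-P. ATP6V0E1 lies on chromosome 5 at 172410774 to 172462448 and overlaps a processed pseudogene and the small nucleolar RNA gene SNORA74B. Both are on its strand, so its count may include their fragments. The median change of these 3 genes was 0.41 and 0.51 in DU145 and 0.56 and 0.25 in 769-P, against a median over all genes tested of 0.07 and 0.12 in DU145 and 0.00 and -0.06 in 769-P.

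All 4 genes of the cytosolic sector were below the control with siRNA 1 in both lines. With siRNA 2, those below it numbered 1 in DU145 and 3 in 769-P, and none was called in either line. ATP6V1A, the catalytic subunit, had 8.12, 4.82 and 9.52 FPKM in DU145 and 7.77, 5.21 and 4.75 FPKM in 769-P, which made it the lowest of the 10 genes in every library. Its log2 change was -0.65 and 0.21 in DU145 and -0.50 and -0.61 in 769-P. ATP6V1B2, the partner that completes the nucleotide-binding sites, had 25.9, 14.1 and 24.4 FPKM in DU145 and 31.5, 19.2 and 34.6 FPKM in 769-P. With siRNA 1 it was at 54.6% and 61.1% of the control in DU145 and 769-P, and with siRNA 2 it was at 94.2% and 109.7%. In both lines, then, siRNA 1 and not siRNA 2 gave the low value of ATP6V1B2, with a gap between the siRNAs of 0.75 in DU145 and 0.81 in 769-P on the log2 scale. The gap of ATP6V1A was of like size in DU145 (0.85) and small and opposite in sign in 769-P (-0.11).

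The peripheral stalk and regulatory subunits of the cytosolic sector moved less. ATP6V1E1, a stator subunit, had 168, 156 and 205 FPKM in DU145 and 98.5, 82.1 and 91.1 FPKM in 769-P, with changes of -0.11 and 0.28 and of -0.26 and -0.11. ATP6V1H, which regulates the coupling of the sectors, had 24.4, 24.1 and 25.5 FPKM in DU145 and 49.2, 44.3 and 43.5 FPKM in 769-P, with changes of -0.01 and 0.06 and of -0.15 and -0.18. The median change of the 4 genes of this sector was -0.38 with siRNA 1 in each line, and 0.14 in DU145 and -0.14 in 769-P with siRNA 2. On the map, ATP6V1A is on chromosome 3 at 113465617 to 113530903, where an antisense lncRNA overlaps it, ATP6V1B2 is on chromosome 8 at 20054892 to 20084330, ATP6V1E1 is on chromosome 22 at 18074902 to 18111515, and ATP6V1H is on chromosome 8 at 54628103 to 54756118.

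The accessory genes differed from each other. ATP6AP1, a glycoprotein that helps to assemble the pump, had 40.7, 49.97 and 60.8 FPKM in DU145 and 51.0, 57.3 and 55.5 FPKM in 769-P. Its change was 0.29 and 0.57 in DU145 and 0.16 and 0.12 in 769-P, so all 4 siRNA libraries were above their control. ATP6AP2, known also as the prorenin receptor, had 20.6, 21.3 and 21.8 FPKM in DU145 and 39.2, 32.1 and 30.3 FPKM in 769-P. Its change was 0.05 and 0.08 in DU145 and -0.28 and -0.36 in 769-P, upward in the first line and downward in the other, and the difference was not tested. The DU145 changes of ATP6AP2 were smaller than the median over all genes tested (0.07 and 0.12). Both genes are on chromosome X, ATP6AP1 at 153656979 to 153664862 and ATP6AP2 at 40438624 to 40466100.

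**Figure D3:**
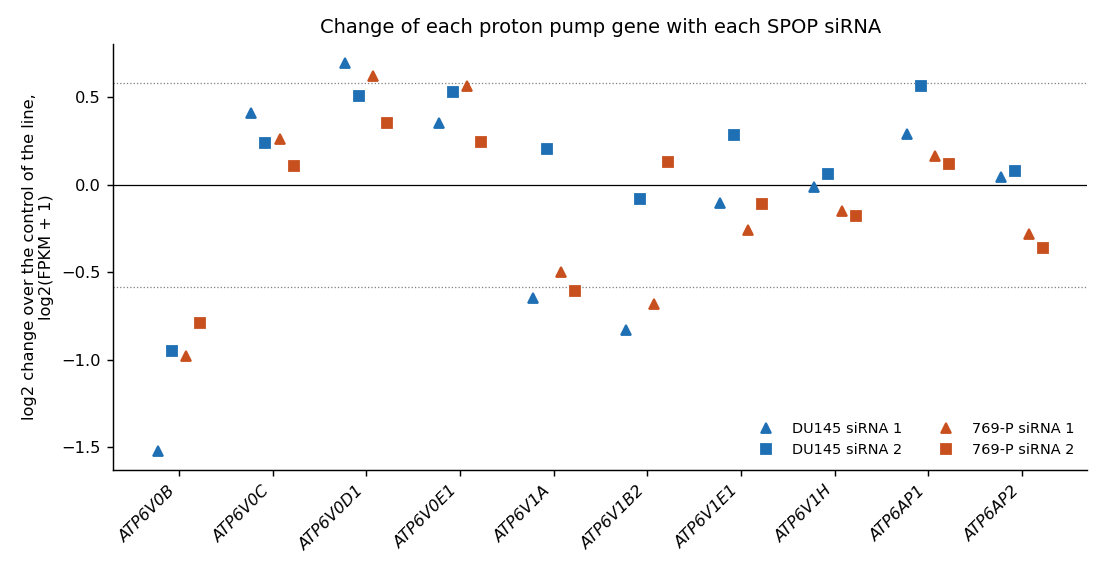
Change of the 10 pump genes over the control of their line on the log2(FPKM + 1) scale, 1 point for each SPOP siRNA, in DU145 and 769-P. ATP6V0B lies at -1.52 and -0.95 in DU145 and at -0.98 and -0.79 in 769-P, ATP6V0C, ATP6V0D1 and ATP6V0E1 lie above 0 with each siRNA, and ATP6V1B2 is low with siRNA 1 alone.

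As a group, the other 9 pump genes had a median log2 change of 0.05 with siRNA 1 and 0.24 with siRNA 2 in DU145, and of -0.15 and 0.11 in 769-P. ATP6V0B lay below that median by a difference of -1.57 and -1.19 in DU145 and of -0.83 and -0.90 in 769-P. The distance was larger in DU145 than in 769-P with either siRNA, a difference that was not tested. With siRNA 1 alone in 769-P, which leaves out the library with many olfactory genes above 0, ATP6V0B and ATP6V1B2 were past 1.5-fold downward and ATP6V0D1 upward, beside 9.84% of all genes downward and 10.3% upward with that siRNA alone.

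DPH2 and B4GALT2, the genes next to ATP6V0B on chromosome 1, did not share its direction. DPH2, a diphthamide synthesis enzyme that ends just before ATP6V0B starts, had changes of 0.48 and 0.23 in DU145 and of 0.20 and 0.16 in 769-P. B4GALT2, a galactosyltransferase just after it, had changes of 0.62 and 0.51 in DU145 and of 0.55 and 0.26 in 769-P. The next genes out were IPO13, an importin, with 0.55 and 0.39 in DU145 and -0.10 and 0.17 in 769-P, and CCDC24, with -0.49 and 0.20 in DU145 and 0.04 and 0.21 in 769-P. None of the 4 neighbours was past 1.5-fold with both siRNAs in either line.

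**Figure D4:**
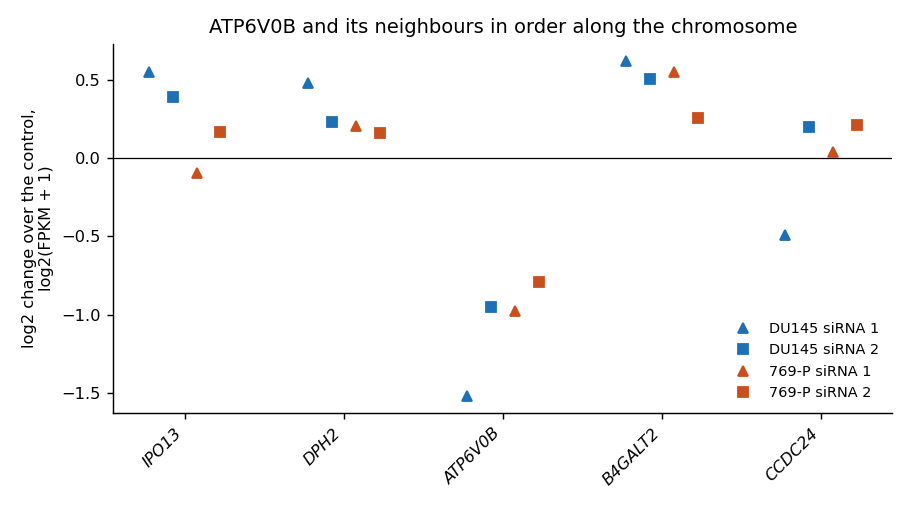
Change over the control on the log2(FPKM + 1) scale of ATP6V0B and the 2 genes on each side of it, in order along chromosome 1, 1 point for each SPOP siRNA. ATP6V0B is below 0 with each siRNA in both lines, while DPH2 and B4GALT2 are above 0 in all 4 siRNA libraries.

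Over the 4 changes (2 siRNAs in each of 2 lines), the genes nearest to ATP6V0B among 8076 genes averaging 5 FPKM or more were FAM111A, ASPH, USP15, PARP12 and CA2, at Euclidean distances of 0.522, 0.528, 0.656, 0.679 and 0.742 on the log2 scale. The nearest, FAM111A, a protease that acts at stalled replication forks, had 9.20, 3.60 and 5.58 FPKM in DU145 and 16.8, 8.86 and 8.37 FPKM in 769-P. ASPH, an endoplasmic reticulum hydroxylase, had 231, 100 and 147 FPKM in DU145 and 114, 50.9 and 55.7 FPKM in 769-P. CA2, a cytosolic carbonic anhydrase that forms protons and bicarbonate, had 13.5, 5.29 and 10.8 FPKM in DU145 and 76.8, 40.4 and 48.6 FPKM in 769-P. USP15 is listed in a row together with the microRNA gene MIR6125. No other pump gene was among the 5 nearest.

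The pump has further subunits, and 16 of them were listed, of which 11 averaged 1 FPKM or more. None of the 11 was called downward in either line. In DU145, 2 were called upward (18.2%, beside 4.72% of all genes tested), and in 769-P none was called. ATP6V1G1, a stator subunit, had 40.4, 69.5 and 64.6 FPKM in DU145 and 37.3, 38.5 and 37.7 FPKM in 769-P, so the higher values were in DU145. ATP6V1E2, an isoform of ATP6V1E1 best known from testis, had 2.09, 4.06 and 4.30 FPKM in DU145 and at most 0.352 FPKM in 769-P. ATP6V1F, the small rotor subunit, had 81.7, 115 and 128 FPKM in DU145 and 80.8, 151 and 118 FPKM in 769-P, above the control in all 4 siRNA libraries without passing 1.5-fold with both siRNAs. ATP6V1C1 and ATP6V1D, of the stator and the rotor, had changes of -0.03 and 0.29 and of -0.49 and -0.01 in DU145, and of -0.43 and -0.25 and of -0.14 and -0.29 in 769-P. The median change of the 11 genes was 0.25 in DU145 and -0.06 in 769-P, beside 0.09 and -0.03 over all genes.

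The large membrane subunit, which steers the pump to its membrane, has 4 isoforms. ATP6V0A4, the kidney isoform, had 0.127, 0.645 and 0.984 FPKM in DU145, near the level of the olfactory genes in the control, and 4.91, 15.8 and 7.63 FPKM in 769-P. ATP6V0A1, listed in a row with a microRNA gene, and ATP6V0A2 had 16.9 to 17.4 and 5.79 to 7.20 FPKM in DU145, and 11.2 to 13.1 and 4.22 to 4.6 FPKM in 769-P. TCIRG1, the isoform used by osteoclasts, had 42.6, 35.6 and 53.1 FPKM in DU145 and 125, 176 and 188 FPKM in 769-P. ATP6V1B1, the B subunit of kidney intercalated cells, was at 1.02, 0.518 and 0.703 FPKM in DU145 and at no more than 0.0848 FPKM in 769-P, so the ubiquitous ATP6V1B2 was the B subunit measured in both lines. ATP6V0E2, the isoform of ATP6V0E1, had 32.4, 22.7 and 23.6 FPKM in DU145 and 9.52, 10.7 and 7.44 FPKM in 769-P. RNASEK, a small pump-associated membrane protein listed in a merged row with a neighbouring gene, was above the control in all 4 siRNA libraries, with changes of 0.34 and 0.30 in DU145 and 0.22 and 0.27 in 769-P.

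Genes around the pump were counted by the same call. Of 9 genes for pump assembly and regulation, none was called in either line, and the median change was 0.19 in DU145 and -0.02 in 769-P. Of 25 lysosomal enzymes and membrane proteins, 2 were called upward in DU145, the proteases CTSB (105, 217 and 181 FPKM) and TPP1 (25.6, 58.2 and 46.5 FPKM). In 769-P the chloride-proton exchanger CLCN7 was called upward (27.8, 48.5 and 42.8 FPKM) and the membrane protein LAMP2 downward (21.5, 12.3 and 13.2 FPKM). These calls made 8% of the list upward in DU145, and 4% upward and 4% downward in 769-P. The shares over all genes were 4.72%, 3.60% and 3.73% in the same order. The lysosomal median was 0.46 in DU145, where 19 of the 25 genes were above the control with both siRNAs, and 0.03 in 769-P, where 10 were. Over all 11865 genes tested, 5164 were above the control with both siRNAs in DU145 and 3740 in 769-P.

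TFEB, the factor that reads the lysosomal promoter element, was called upward in 769-P (2.35, 4.21 and 4.4 FPKM) and had 2.0, 3.28 and 3.44 FPKM in DU145, where it was not called. Its relative TFE3 had changes of 0.55 and 0.57 in DU145 and of 0.41 and 0.43 in 769-P. Of the 3 genes of this family that could be tested, 0 were called in DU145. With the olfactory mean of each library subtracted, TFEB and ATP6V0A4 were also called upward in DU145. Under that setting 7.09% of all genes were called upward in DU145, against 4.72% before it. The ATP6V0A4 control (0.127 FPKM) was below the 0.345 FPKM subtracted from it and was set to 0, so its call depends on the subtraction. Among 10 genes of the Ragulator and Rag GTPases, which sit on the lysosome beside the pump, LAMTOR4 was called upward in DU145 (59.9, 96.1 and 92.4 FPKM) and none in 769-P. That was 10% of the list in DU145, beside 4.72% of all genes called upward there. With limma, 0 of the 58 genes of these 5 lists passed an adjusted p of 0.05 for the knockdown in either line, with 7 at an unadjusted p under 0.05 in DU145 and 6 in 769-P (744 and 827 of all 11865 genes), and the smallest adjusted p was 0.719 and 0.693. Over all genes 16 (0.135%) passed in DU145 and 12 (0.101%) in 769-P.

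**Figure D5:**
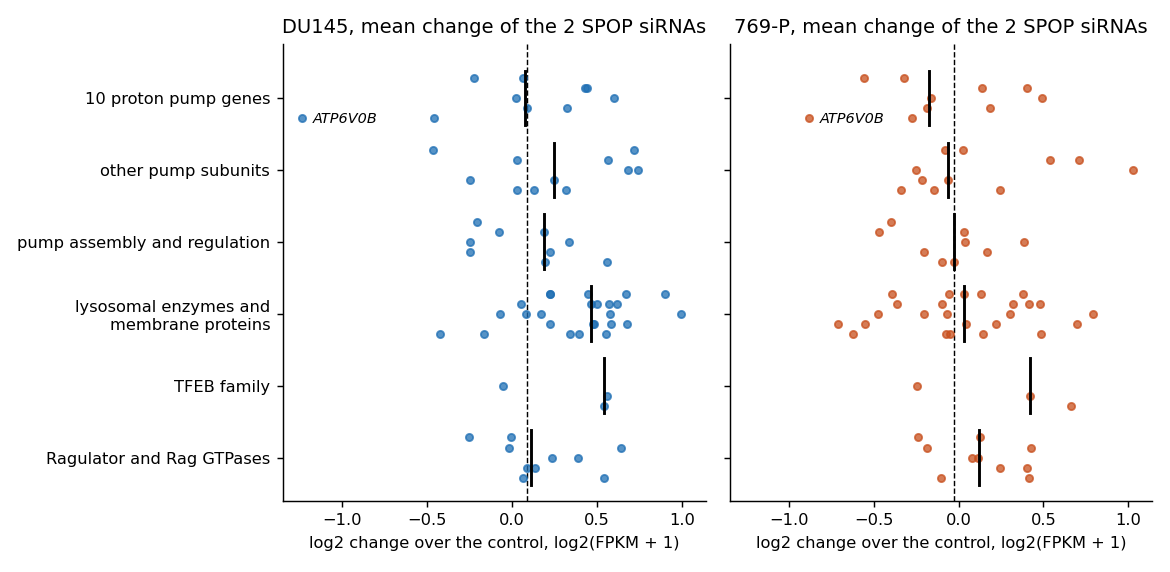
Mean change over the 2 SPOP siRNAs on the log2(FPKM + 1) scale for the 10 pump genes and 5 lists of related genes, 1 point a gene. Solid bars mark the median of each list and the dashed line the median of all genes tested (0.09 in DU145 and -0.03 in 769-P). ATP6V0B lies to the left of every other point.

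The level of the pump genes was then compared between the lines, a contrast other than the knockdown change by which ATP6V0B was chosen. It is not fully separate from that choice for ATP6V0B, since 4 of its 6 libraries are the siRNA libraries. The mean of the 3 DU145 libraries was set against the mean of the 3 769-P libraries with limma (4 groups fitted together), so its error comes from the gap between the 2 siRNAs of each line. Of the 10 genes 6 passed an adjusted p of 0.05, beside 45.5% of all genes tested. Higher in 769-P were 5 genes (background 16.1%), and 1 was higher in DU145 (background 29.4%).

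The difference was widest for ATP6V0E1, whose libraries lay between 80.9 and 117 FPKM in DU145 and between 183 and 270.4 FPKM in 769-P. It was 2.21-fold higher in 769-P, with a log2 difference (DU145 minus 769-P) of -1.14 ± 0.15 (SE, limma adjusted p = 0.00314). ATP6V1H was 1.81-fold higher in 769-P (-0.86 ± 0.14, limma adjusted p = 0.00525). ATP6V1E1 was the gene that ran the other way, 1.93-fold higher in DU145 (0.95 ± 0.16, limma adjusted p = 0.00702). ATP6V0C was 1.63-fold higher in 769-P (-0.70 ± 0.14, limma adjusted p = 0.0110) and ATP6AP2 was 1.56-fold higher there (-0.64 ± 0.14, limma adjusted p = 0.0148). For these 5 genes the 3 libraries of one line did not overlap the 3 of the other, which was so for 56.3% of all genes. The exact permutation test gave p = 0.1 (two-sided) for each, the smallest that 3 against 3 allows.

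ATP6V0B was 1.66-fold higher in 769-P (-0.73 ± 0.20, limma adjusted p = 0.0301), but its libraries overlapped, since the DU145 control (106 FPKM) lay above both 769-P siRNA libraries (75.9 and 86.6 FPKM), and the exact permutation p was 0.3. With the siRNA libraries alone the difference was -0.85. The controls, 1 library a line, had 106 FPKM in DU145 and 150.2 FPKM in 769-P, and their gap alone was not tested. The 1.66-fold difference thus mixes the gap between the lines with the knockdown change by which ATP6V0B was chosen. The call was lost without DU145 siRNA 1 (difference -0.54, limma adjusted p = 0.0683), without 769-P siRNA 1 (-0.80, limma adjusted p = 0.12) and without 769-P siRNA 2 (-0.67, limma adjusted p = 0.158). Without 769-P siRNA 1 or without 769-P siRNA 2, ATP6V0E1 and ATP6V1H were the 2 of the 10 genes called, beside 23.5% and 23.8% of all genes under these settings. The other 4 genes did not pass: the difference was 0.18 ± 0.15 for ATP6V0D1 (limma adjusted p = 0.359), 0.28 ± 0.26 for ATP6V1A (0.427), -0.39 ± 0.31 for ATP6V1B2 (0.338) and -0.13 ± 0.15 for ATP6AP1 (0.514).

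Over all genes the median difference between the lines was 0.16, and quantile normalization brought it to -0.05, which moved the share of calls that were higher in DU145 from 64.6% to 48.4%. The 6 pump genes called kept their direction and their call under that scaling, with -0.79 for ATP6V0B, -0.56 for ATP6V0C, -1.15 for ATP6V0E1, 0.92 for ATP6V1E1, -0.95 for ATP6V1H and -0.76 for ATP6AP2. Of the 11 further subunits 5 were called by the same limma test, beside 45.5% of all genes tested, which is about the same share. ATP6V1E2 (1.86), ATP6V0E2 (1.41) and ATP6V1G1 (0.57) were higher in DU145, and ATP6V0A4 (-2.62) and TCIRG1 (-1.87) were higher in 769-P.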

How the data were processed

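Poly(A) RNA of 6 libraries had been sequenced, and per the labels reads were handled with FastQC, cutadapt and TopHat2 on hg19. The study's methods describe duplicate biological samples and another library kit, whereas the labels show 1 library a condition. The deposited values were FPKM by the file headers, computed by the authors with no counts given, and the study's methods name Cufflinks. Rows with the same symbol were summed, and genes averaging 1 FPKM or more were kept. Changes are differences of log2(FPKM + 1), with a pseudocount of 1, which understates the change of low genes. A call required 1.5-fold, the same way, with each siRNA. limma 3.58.1 in R 4.3.3 fitted the 4 groups together on log2 values (trend on, Benjamini-Hochberg over 11865 genes, checked on simulated data), and exact two-sided permutation tests were run between lines. Genes named were the 10 pump genes, the listed genes called in a line (at most 6 a list), all other pump subunits averaging 1 FPKM or more, the 2 neighbours on each side and the 5 nearest genes. ATP6V1B1 and TFE3 were named after their values were seen. The members and the lists were chosen with earlier results of these data known. Alternatives were another pseudocount, filter, threshold and scaling, the replicate number as a block, and each siRNA library left out.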

Additional observations from a re-analysis of the deposited data

Results flagged for a closer look

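Both siRNAs moved 5 named genes one way in DU145 and the opposite way in 769-P. The difference in change (DU145 less 769-P) was 0.39 on the log2 scale for ATP6AP2, 0.17 for ATP6V0A1 (listed in a row with a microRNA gene), 0.31 for ATP6V0A2, 0.99 for ATP6V1E2 and 0.93 for LAMP2. The difference was not tested for ATP6AP2. In DU145 the changes of ATP6AP2 (0.05 and 0.08) and ATP6V0A1 (0.02 and 0.04) were below the median over all genes tested (0.07 and 0.12). Relative to the median of each library, both genes were thus lower in both lines. The median of the difference over all genes was 0.14, close to the 0.17 of ATP6V0A1. In the limma fit of the difference of the knockdown change, 0 of the 58 list genes passed an adjusted p of 0.05. An unadjusted p under 0.05 was met by 3 of the 58, beside 325 of all 11865 genes. Such opposite movement was seen in 1636 of the 11865 genes tested, or 13.8%, beside 5 of 27 named genes, or 18.5%. ATP6V1E2 in 769-P was low, at 0.352, 0.110 and 0.166 FPKM (control, siRNA 1, siRNA 2). The olfactory mean of these libraries was 0.00908, 0.0109 and 0.227 FPKM, so only the siRNA 2 value lay below that of its own library.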

How the results depend on the processing

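The change of ATP6V0B was -1.25 in DU145 and -0.89 in 769-P with a pseudocount of 0.1, -1.33 and -0.85 when centred on the median of all genes, and -1.23 and -0.88 with the olfactory mean subtracted. With 1 siRNA alone it ran from -1.52 to -0.95 and from -0.98 to -0.79. The count of genes past 1.5-fold was 701 in DU145 and 869 in 769-P. It was 118 and 145 at 2-fold, 1132 and 1489 with a pseudocount of 0.1, and 440 and 573 at a mean of at least 5 FPKM. Without the filter it was 1140 in DU145. With 1 siRNA alone it was 1787 to 2308 in DU145 and 1723 to 2388 in 769-P. For the knockdown limma called 16 genes (DU145) and 12 genes (769-P), and 20 genes differed in their change between lines. Without the filter these were 1186, 148 and 1202. At a mean of at least 5 FPKM they were 4 in DU145 and 3 for the difference. The difference had 10 calls with quantile normalization and 0 with a pseudocount of 0.1 (319 at an unadjusted p under 0.05). Leaving out an siRNA library gave 0 to 30 calls in DU145, 0 to 7 in 769-P and 0 to 37 for the difference. The 0 came without 769-P siRNA 1 or siRNA 2, with 462 and 463 genes at an unadjusted p under 0.05 in DU145, 362 and 578 in 769-P, and 215 and 282 for the difference. The cause was not tested.

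Between the lines 5395 genes and 6 pump genes were called. These were 2788 to 4008 genes and 2 to 6 pump genes without 1 siRNA library, and 3537 genes at a mean of at least 5 FPKM. With the siRNA libraries alone and 769-P siRNA 2 left out, an alternative chosen after seeing the data, 1640 genes and 1 pump gene were called, and ATP6V0B had a difference of -0.76 (limma adjusted p = 0.225). Without the filter its difference of -0.73 had a limma adjusted p of 0.148, and without 1 siRNA library it ran from -0.92 to -0.54. ATP6V1A, not called, turned from 0.28 to -0.0057 without DU145 siRNA 2, and was 0.56 without DU145 siRNA 1. With a replicate block by siRNA number there were 18 and 13 calls for the knockdown, 8 for the difference and 6310 between the lines, and 7 pump genes were called, with ATP6V1B2 (limma adjusted p = 0.0489) added. The number is only shared by the lines: across 11865 genes the gaps between the siRNAs correlated at r = 0.27, and genes are not independent replicates. Depth limits low genes most and could only be estimated roughly from FPKM.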
